A study of Mus musculus with 16 samples.

Results

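The mitogen-activated protein (MAP) kinase cascade, the phosphoinositide 3-kinases (PI3K) and related serine/threonine kinase families are described here in mouse bone marrow cells enriched for stem and progenitor cells. Members were taken by gene symbol: every gene of the deposited table whose symbol starts with Map2k, Map3k, Map4k, Mapk, Camk, Prk, Pik3, Pip4k or Pip5k, or with Cdk or Stk followed by a digit. That gave 67 of the 6288 genes in the table. The genome annotation (GENCODE release 21, GRCm38) holds 172 protein-coding genes with these prefixes, and the other 105 were not analysed here, among them Mapk3, Mapk14, Pik3cd and every Pip5k gene. By role, the members were 3 MAP4K, 8 MAP3K, 4 MAP2K and 7 MAPK genes, 3 genes of MAPK-activated or MAPK-interacting proteins, 8 PI3K or phosphatidylinositol phosphate kinase genes, 6 of protein kinase A (PKA) or AMP-activated kinase (AMPK), 4 of protein kinase C or D, 5 CAMK, 9 CDK and 8 STK genes. The prefix rule also took in genes that encode no kinase, such as Prkrip1, the PI3K inhibitor Pik3ip1, the adaptor Pik3ap1, the CDK-associated Cdk2ap2 and Cdk5rap1, the pseudokinase Camkv and the regulatory subunits of PKA.

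MAP kinase cascades pass signals in tiers: MAP4K enzymes act on MAP3K enzymes, which phosphorylate MAP2K enzymes, and these in turn phosphorylate the MAP kinases ERK, JNK and p38, which act on transcription factors and on further kinases such as the MAPKAPK enzymes. PI3K enzymes phosphorylate inositol lipids at the membrane and so recruit AKT, while PKA, AMPK and the CAMK family respond to cyclic AMP, to cellular energy and to calcium. In blood-forming cells these pathways lie downstream of cytokine receptors such as Kit and of Toll-like receptors, and take part in survival, proliferation, lineage choice and stress responses.

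Bulk RNA sequencing libraries came from 16 samples in 4 groups of 4, which the labels call matched biological replicates. WT mice were C57Bl/6J and Tet2-deficient mice were Tet2-/-, both aged 3 to 4 months and of both sexes, with Tet2 encoding a dioxygenase that oxidises methylcytosine. All marrow was collected in a chamber at 3% oxygen (physioxia) and enriched there with selection kits for lineage-negative cells positive for Kit and Sca1, and the labels name the cells CD45 positive. WT physioxia and Tet2-deficient physioxia cells stayed in the chamber until RNA extraction, and WT air and Tet2-deficient air cells were first kept for 6 hours in ambient air (about 21% oxygen), so that every group was harvested at low oxygen. The labels do not say from which tissues Tet2 was lost or whether a sample pooled mice.

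The table held 7770456 to 15683867 reads per library, of which the kinase family genes took 0.93% to 1.16%. Its values are read counts divided by a size factor per library, called normalized counts below, and differences are on the log2(normalized count + 1) scale. How the genes of the table were chosen is not stated. DESeq2 was fitted once over all 16 libraries and read for the 4 pairs of groups that share a genotype or an oxygen condition. The smallest of the 4 p-values was below 0.05 before adjustment for 6179 of the 6288 genes (98.3%), and likewise for 66 of the 67 kinase family genes. Being in the table thus already goes with a difference, and the counts below do not describe the families as a whole. In air, Tet2 read 855 ± 157 (SD, n = 4) in WT and 554 ± 54.1 in Tet2-deficient cells, and 731 ± 97.4 and 482 ± 36 in physioxia, so its transcript was lower but present in the libraries labelled Tet2-deficient (adjusted p = 0.00223 in air and 0.00267 in physioxia). In WT physioxia library 2, the deepest, the members took 0.93% of the reads against 1.12% to 1.14% in the other 3 of its group, and it was the lowest of the group for 30 and the highest for 18 of the 66 members tested. Other libraries held many extremes of their group too, with WT air library 3 the highest for 31 members and Tet2-deficient physioxia library 4 for 27.

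The families spanned a wide range of levels. Per kilobase of exon, averaged over the 16 libraries, Prkar1a, the main regulatory subunit of PKA, stood highest with 4906 normalized counts per kb, and was followed by Cdk2ap2 with 3622, Mapkapk3 with 1709, Stk16 with 1341 and Stk17b with 1239. Map4k1, a haematopoietic MAP4K, with 1099, Map2k3 with 1098 and Mapk6 with 1066 came close to each other. The lowest levels were those of Map3k13 with 0.798, Camkv with 1.45 and Camk2b with 3.55 per kb. Camkv, with at most 15.1 normalized counts in any library, was the member left out by the filter of at least 10 normalized counts in at least 4 libraries, which leaves 66 members among 6110 genes tested. Counting is not stated to use strand, and exons of some members overlap a gene on the opposite strand: 30.5% of the exon bases of Stk16 are shared with Tuba4a, 17.5% of Map3k12 with Pcbp2, 12.3% of Pik3c2a with Gm44777, 7.79% of Mapk1ip1l with Gm49190, 6.36% of Map4k5 with Atl1, 5.18% of Cdk17 with Elk3 and 5.07% of Stk11 with Cbarp, so reads of these pairs cannot be fully told apart.

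Oxygen was compared first, physioxia minus air within WT. A gene is called where the limma fit across all 6110 genes gave a Benjamini-Hochberg adjusted p under 0.05. Of the 66 members, 6 were higher in physioxia, against 4.91% of all genes tested, and 1 was lower, against 0.851%. The higher members included Prkci, Prkar2b, Map4k5, Map2k4 and Mapk9, and the lower was Map3k1. The WT groups of the 7 called members did not overlap, but how often this held among all called genes was not counted, so it adds no support.

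**Figure D1:**
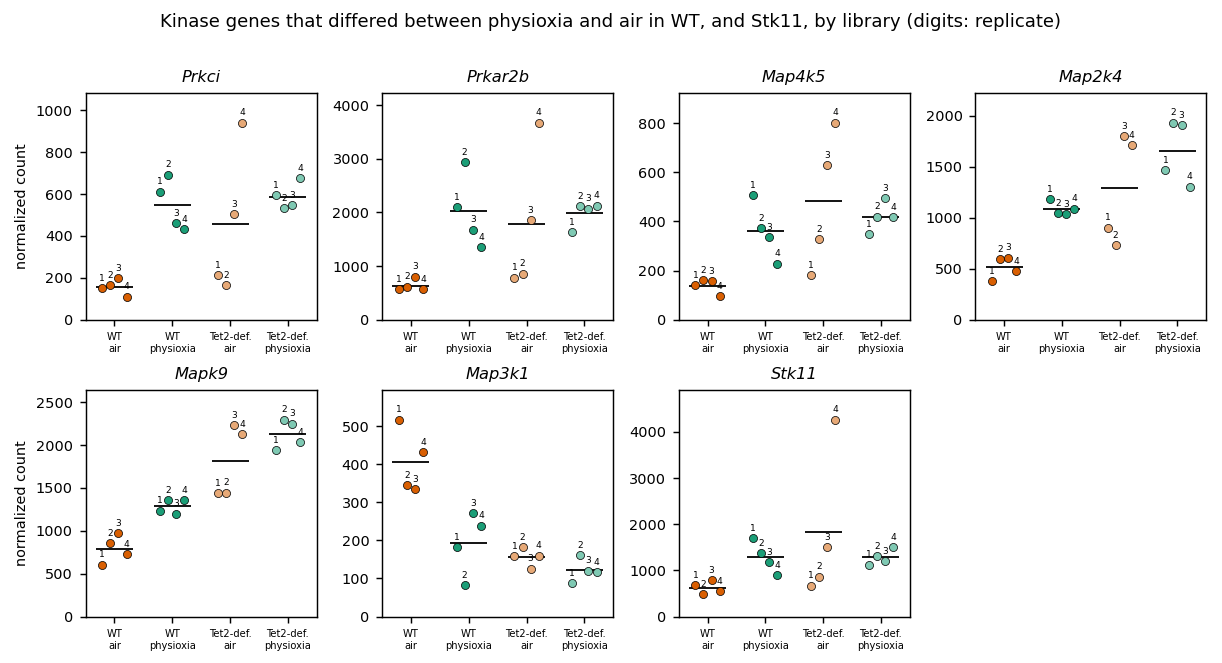
Normalized counts (linear axis from 0) of Prkci, Prkar2b, Map4k5, Map2k4, Mapk9 and Map3k1, called between WT physioxia and WT air, and of Stk11, in all 16 libraries; points are libraries, with the replicate number above each, and bars are group means. For the 5 genes shown that were higher in physioxia every WT air library lies below every WT physioxia library. The Tet2-deficient air libraries are widely spread for Prkci, from 166 to 941, and much less for Mapk9.

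Prkci encodes an atypical protein kinase C that acts in cell polarity (ENSMUSG00000037643, chr3:30995747-31052959, plus strand). Its normalized counts were 152, 164, 200.4 and 111 in WT air and 612, 694, 461 and 434 in WT physioxia, for libraries 1 to 4. Every physioxia library was above every air library, and the log2 difference was 1.81 (SE 0.39, adjusted p = 0.0161). Prkar2b encodes a regulatory subunit of PKA that holds the catalytic subunit inactive until cyclic AMP binds (ENSMUSG00000002997, chr12:31958476-32061296, minus strand). It read 565, 616, 806 and 564 in WT air and 2107, 2937, 1680.5 and 1361 in WT physioxia, a log2 difference of 1.62 (SE 0.37, adjusted p = 0.019). All 4 physioxia libraries again lay above all 4 air libraries, with library 2 the highest.

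Further members called belong to the MAP kinase cascade. Map2k4 encodes a MAP2K that activates JNK and p38 (ENSMUSG00000033352, chr11:65688243-65788297, minus strand), and Mapk9 encodes JNK2, which it can phosphorylate (ENSMUSG00000020366, chr11:49846751-49886421, plus strand). Map2k4 read 375, 593, 608 and 476 in WT air and 1181, 1044, 1034 and 1088 in WT physioxia, a log2 difference of 1.11 (SE 0.25, adjusted p = 0.019). Mapk9 read 606, 858, 976.8 and 729 in air and 1236, 1357, 1199.8 and 1362 in physioxia, a log2 difference of 0.72 (SE 0.16, adjusted p = 0.0186). For both genes the 4 physioxia libraries were closely grouped and all above the air libraries.

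Map4k5, a kinase upstream of JNK (ENSMUSG00000034761, chr12:69803750-69893200, minus strand), read 140.3, 161, 159 and 96.6 in WT air and 509, 373, 336 and 229 in WT physioxia, a log2 difference of 1.34 (SE 0.36, adjusted p = 0.0399). Map3k1, a MAP3K upstream of JNK and ERK (ENSMUSG00000021754, chr13:111746428-111808993, minus strand), went the other way. It read 517, 344, 334 and 431 in WT air and 183, 82.1, 271 and 239 in WT physioxia, a log2 difference of -1.17 (SE 0.30, adjusted p = 0.0337). The lowest value was that of physioxia library 2. Mapk8, which encodes the closely related JNK1, was not called: it read 1841 ± 198 (SD, n = 4) in WT air and 1592 ± 179.7 in WT physioxia, with a 95% interval of the log2 difference from -0.44 to 0.02. Map2k1 and Map2k2, the ERK activators MEK1 and MEK2, were not called either, with log2 differences of 0.01 (adjusted p = 0.969) and 0.72 (adjusted p = 0.145).

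These oxygen calls rest on a small margin. None of the 7 was called when p-values were adjusted over 22719 genes, as if each protein-coding gene not in the table were unchanged. The share of all genes tested that was called also fell there, from 5.76% to 1.57%. No member was called without WT air library 4 (2.09% of all genes tested) or without WT air libraries 1 and 2 together (0%). Without WT air library 1, 3 members were called, 2 of them among the 7, and 3.93% of all genes tested. Without WT air library 2, 3 of the 7 were called (2.49% of all genes tested). Without WT physioxia library 1 or library 2, 1 of the 7 was called (2.09% and 2.70% of all genes tested). The labels call the replicates matched but do not say that equal numbers mark pairs. With the replicate number as a block, Map3k6 (a MAP3K of the stress cascades) was an 8th call with adjusted p = 0.0425. Of all genes tested 7.56% were called there.

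The 250 bases upstream of the RefSeq start site (GRCm38.p6) are shown for 4 of the genes called higher in WT physioxia. Their shared direction follows from that choice, and whether they vary together was not tested. Hypoxia-inducible factors bind DNA at a short core, ACGTG. Capitals mark that core on either strand, and sequences run 5′ to 3′ on the gene's strand.
Map2k4 (chr11:65788360-65788609, minus strand): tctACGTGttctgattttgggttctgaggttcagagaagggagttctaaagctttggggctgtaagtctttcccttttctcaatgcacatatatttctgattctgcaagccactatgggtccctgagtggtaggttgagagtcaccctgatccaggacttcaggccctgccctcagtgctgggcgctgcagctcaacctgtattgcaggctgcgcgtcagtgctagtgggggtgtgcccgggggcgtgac
Mapk9 (chr11:49846501-49846750, plus strand): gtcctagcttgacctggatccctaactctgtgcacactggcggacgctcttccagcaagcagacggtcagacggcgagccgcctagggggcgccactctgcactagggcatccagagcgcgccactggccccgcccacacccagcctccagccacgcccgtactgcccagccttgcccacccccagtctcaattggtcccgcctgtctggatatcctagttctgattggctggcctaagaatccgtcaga
Prkar2b (chr12:32061278-32061527, minus strand): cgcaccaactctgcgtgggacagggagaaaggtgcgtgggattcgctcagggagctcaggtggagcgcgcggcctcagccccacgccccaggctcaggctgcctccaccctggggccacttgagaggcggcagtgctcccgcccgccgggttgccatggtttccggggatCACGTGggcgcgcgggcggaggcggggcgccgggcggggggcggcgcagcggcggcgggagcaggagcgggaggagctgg
Prkci (chr3:30995521-30995770, plus strand): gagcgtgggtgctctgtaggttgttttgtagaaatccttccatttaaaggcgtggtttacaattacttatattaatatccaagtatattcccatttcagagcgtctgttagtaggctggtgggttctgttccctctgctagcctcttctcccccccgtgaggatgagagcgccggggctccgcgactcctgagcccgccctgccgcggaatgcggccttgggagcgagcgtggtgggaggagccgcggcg
The window of Map2k4 holds the core once, 247 bases before the start site, and that of Prkar2b holds it on both strands within the E-box CACGTG, starting 80 bases before it. The windows of Mapk9 and Prkci hold none, and neither does that of Map4k5, also higher in WT physioxia, which is not shown. Over all members with an entry in the promoter table, 17 of 56 windows (30.4%) held the core, against 5418 of 32536 (16.7%) windows of all RefSeq genes in the table. By genotype in air, the core was in 9 of 20 windows (45%) of members higher in Tet2-deficient cells and 7 of 24 (29.2%) of members lower. CACGTG, which contains the core, was found in 8 of 56 (14.3%) against 6.04%. Other motifs searched on both strands were the AP-1 site TGANTCA (0 of 56, against 6.73%), the cyclic AMP element TGACGTCA (1 of 56, against 1.56%), the GATA site AGATAA (4 of 56, against 9.97%), a kappaB-like motif (4 of 56, against 4.65%) and CCAAT (19 of 56, against 33.8%). GC content differed between these windows, with 54% for Map2k4, 63.6% for Mapk9, 75.6% for Prkar2b and 56.4% for Prkci, beside a median of 52.4% over all. Among all members it ran from 38.8% (Pik3cg) to 85.2% (Map3k1), and most windows were richer in GC than that median. The core itself holds CG, and the shares were not matched for GC content, so the difference from all windows cannot be read as an enrichment. A match of letters is a description and shows no binding.

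In Tet2-deficient cells no member was called between physioxia and air, where 0% of all genes tested were called. Unadjusted p-values under 0.05 numbered 3 in limma (Map3k7, Camk2b and Cdk17), 2 in edgeR and 3 in DESeq2, and neither of the latter called a member. Among the genes higher in WT physioxia, Prkci, Prkar2b and Map4k5 were widely spread in Tet2-deficient air, with an SD of 77.9%, 75.0% and 58.0% of the mean. Map2k4 (42.5%) and Mapk9 (23.7%) were less so. Prkci read 214, 166, 506 and 941 in air and 597, 531, 548 and 678 in physioxia. Prkar2b read 787, 859.6, 1851 and 3675 in air and 1641, 2116, 2072 and 2129.9 in physioxia. For Prkci and Prkar2b, air libraries 1 and 2 were below every Tet2-deficient physioxia library and library 4 above every one.

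Tet2-deficient air library 4 was the highest of its group for 14 and the lowest for 18 of the 66 members, and library 2 was the highest for 22. Among the members highest in library 4, Map4k5 read 181, 329, 628 and 802 there, Cdk16 (a CDK of the PCTAIRE group) 310.2, 568, 691 and 1757, and Stk11 669, 867, 1506 and 4267. Stk11 encodes LKB1, the kinase that activates AMPK. Library 4 was the highest of all 16 libraries for Stk11, Cdk16, Map4k5, Prkar2b and Prkci. Map2k4 and Mapk9 differed in that libraries 3 and 4 were alike: Map2k4 read 902, 735, 1799 and 1713, and Mapk9 1440.4, 1446, 2237 and 2126. Summed markers of erythroid progenitors were also uneven, with 133642, 133640, 383901 and 182902 normalized counts in Tet2-deficient air libraries 1 to 4, and their part in the kinase values was not tested. Without Tet2-deficient air libraries 3 and 4, 3 members were called as higher in Tet2-deficient physioxia, where 2.49% of all genes tested were called (146 higher and 6 lower): Prkci by 1.63, Prkar2b by 1.27 and Map2k4 by 1.00 on the log2 scale (adjusted p = 0.00218, 0.0108 and 0.0161). Library 4 lay above every Tet2-deficient physioxia library for Prkci and Prkar2b, so that leaving it out favours this direction.

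Averaged over both genotypes, 4 members were higher in physioxia, against 3.42% of all genes tested, and none was lower, against 0.507%. These were Prkci with a log2 difference of 1.25 (SE 0.28, adjusted p = 0.0185), Prkar2b with 1.03 (SE 0.26, adjusted p = 0.037), Map2k4 with 0.78 (SE 0.18, adjusted p = 0.0221) and Mapk9 with 0.49 (SE 0.12, adjusted p = 0.0244). All 4 had overlapping groups once both genotypes were pooled. The alternatives below give in brackets the share of all genes tested that was called, 3.93% in the main fit. No member was called when p-values were adjusted over all protein-coding genes (1.57%) or without WT air libraries 1 and 2 (0.147%). Without WT air library 4, Tet2-deficient air library 1 or Tet2-deficient physioxia library 3, 1 was called (2.27%, 2.31% and 2.34%). Without WT air library 1, Tet2-deficient air library 2 or WT physioxia library 1, 2 were called (2.73%, 2.64% and 2.41%). Leaving out WT air library 3 or Tet2-deficient air library 4 gave 7 (4.52% and 5.88%), and Tet2-deficient air libraries 3 and 4 together 12 (7.22%). With the replicate block Map3k1 was also called, as lower, with a log2 difference of -0.78 (adjusted p = 0.0413).

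The effect of oxygen was not shown to differ between genotypes for any member. In the interaction test 0% of all genes were called, and 5 members had an unadjusted p under 0.05 in limma, 8 in edgeR and 8 in DESeq2, with none called by these tools. Among the 5 were Map4k5 with an interaction of -1.34, Prkar2b with -1.19, Map3k12 with 0.94 and Stk19 with -0.35 on the log2 scale, each at adjusted p = 0.552. The 95% interval of the interaction ran from -2.43 to -0.25 for Map4k5.

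**Figure D2:**
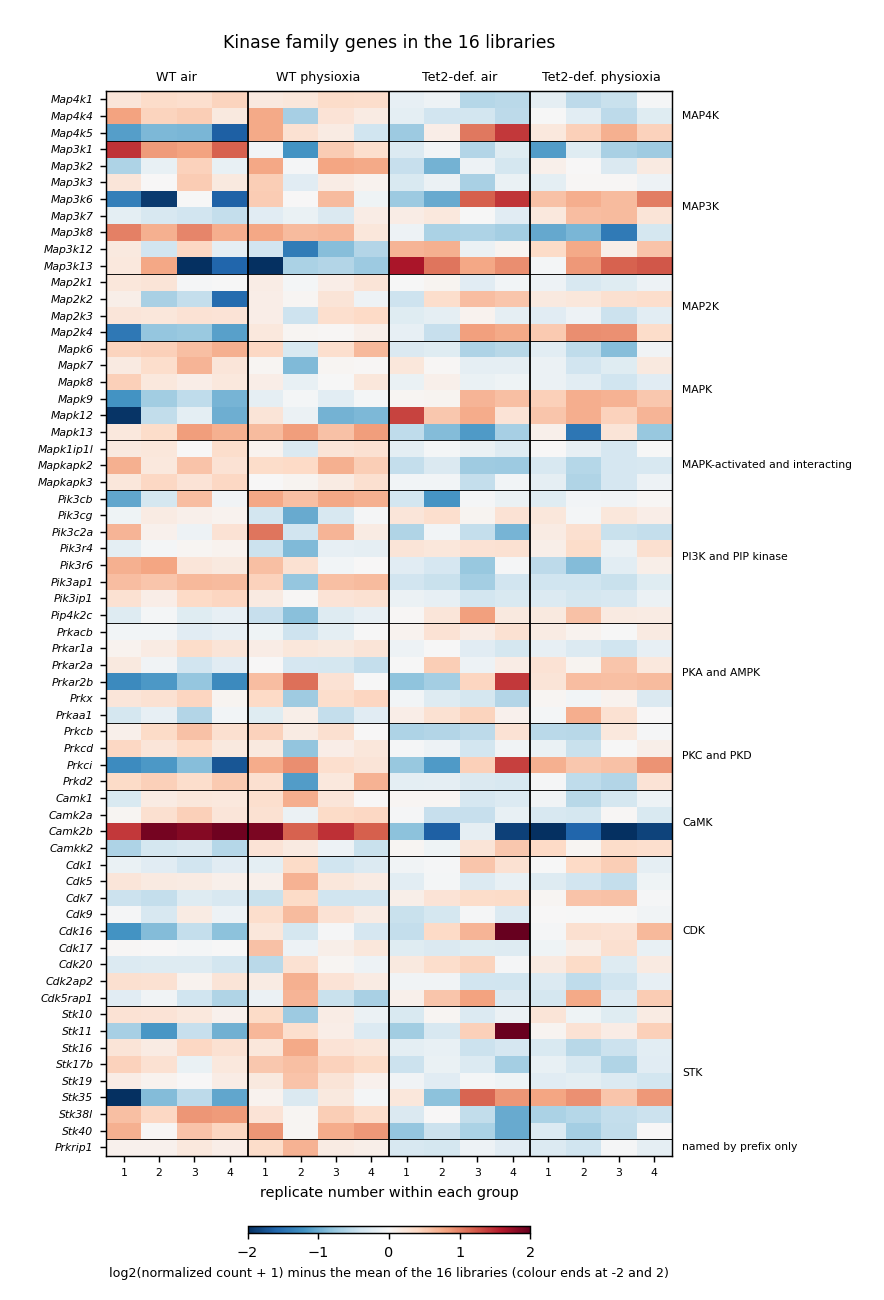
Level of each of 64 members in the 16 libraries, as log2(normalized count + 1) minus the member's mean over the libraries (colour scale from -2 to 2); rows are genes ordered by family, columns are libraries ordered by group and replicate. Red is above and blue below the mean, and Camk2b shows the widest gap between genotypes, with 42.4 to 72.7 normalized counts in the WT libraries and 2.36 to 16 in the Tet2-deficient ones.

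More members were called between genotypes than between oxygen conditions. In air 22 of the 66 members (33.3%) were higher in Tet2-deficient cells, against 42.1% of all genes tested, and 30 (45.5%) were lower, against 37.4%. In physioxia 14 (21.2%) were higher, against 35.9%, and 27 (40.9%) lower, against 33.6%. The median log2 difference of the members was -0.29 in air and -0.19 in physioxia, beside 0.24 and 0.06 over all genes tested. In both oxygen conditions 10 members were higher, against 29.1% of all genes tested, and 21 were lower, against 27.5%. A further 4 (Mapk7, Cdk17, Stk10 and Cdk5rap1) were called in neither condition, and none was called in opposite directions. Many members with values per library below were picked for groups that do not overlap. How often this held among all called genes was not counted, so it adds no support to the genotype calls described below. Under quantile normalization the median of all genes in air moved by -0.12, all genes called there went from 2575 higher and 2283 lower to 1984 and 2303, and no called member changed sign. It called 19 members higher and 33 lower in air, 46 of them among the 52, and 9 higher and 24 lower in physioxia, 29 of them among the 41. Of all genes tested, 1909 were higher and 1938 lower in physioxia under it, against 2192 and 2051. The members called in air fell to 27 without Tet2-deficient air libraries 3 and 4 and to 31 without WT air libraries 1 and 2. The share of all genes tested fell too, from 79.5% to 45.2% and 54.4%. In physioxia 45 members were called without WT physioxia library 2, where 70.5% of all genes tested were, against 69.4% in the main fit.

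**Figure D3:**
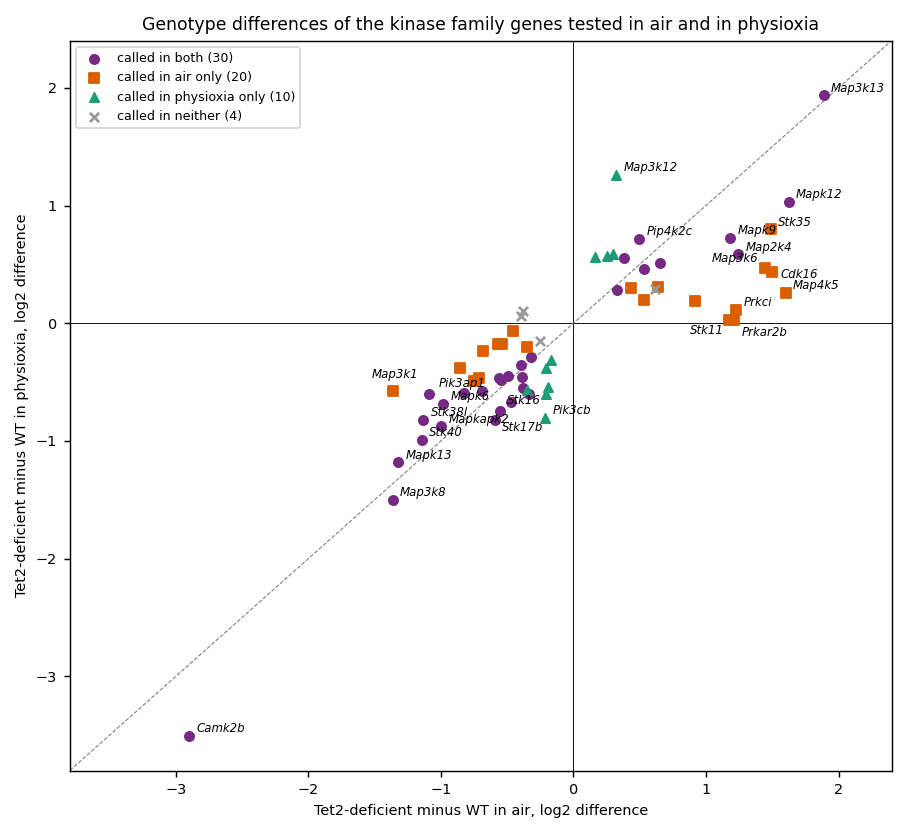
Log2 difference between Tet2-deficient and WT cells in air (horizontal) and in physioxia (vertical) for 64 members; each point is a gene, its colour and shape give where it was called, and the dashed line marks equal differences. Of the members called under both conditions, 9 lie in the upper right and 21 in the lower left, with Camk2b lowest on both axes at -2.90 and -3.50, and Map4k5, Prkci, Prkar2b and Stk11 far to the right but near 0 in physioxia.

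Markers of several cell types moved with genotype, and fewer cells of a type cannot be told apart here from less RNA per cell. Erythroid progenitor markers were called as higher in air for 15 of the 16 tested and summed to 38423 to 61624 normalized counts in WT air, 133640 to 383901 in Tet2-deficient air, 46599 to 83784 in WT physioxia and 126566 to 346032 in Tet2-deficient physioxia. Basophil, mast cell and eosinophil markers were lower in air for 9 of 11 and summed to 502121 to 547849, 104120 to 193908, 404181 to 684408 and 130941 to 203765 in the same order. Of mature neutrophil markers 9 of 10 were lower (sums of 3746 to 13434, 1819 to 2848, 6494 to 16677 and 2243 to 3153), of monocyte and macrophage markers 5 of 6 (13022 to 27217, 9838 to 10219, 13099 to 35800.1 and 8535 to 9682), and of T and NK cell markers 15 of 18, with 1 higher (30618 to 36235, 18332 to 26414, 27943 to 45912 and 18534 to 26262). All 9 stem and multipotent progenitor markers tested were higher (8455 to 10655, 16633 to 21567, 6760.3 to 10631 and 16652 to 21529). Megakaryocyte markers were mixed with 3 higher and 4 lower of 8 (9256 to 14856, 10359.9 to 15506, 9099 to 15193 and 8828 to 14829), as were B cell markers (1 higher of 2, sums of 21.7 to 60.4 over all groups) and stromal and endothelial markers (1 higher and 1 lower of 3, sums of 1340.03 to 5004). Sums follow their most abundant genes. Nkg7 averaged 29163 of the mean T and NK cell sum of 33094 in WT air, and 21933 of 23017 in Tet2-deficient air. Prg2 averaged 357430 of the mean basophil, mast cell and eosinophil sum of 517435 in WT air. No listed marker in the table had a group mean of 0. The part of these cell types in the kinase differences was not tested. The fraction enriched for stem and progenitor cells also carried transcripts of mature myeloid, basophil and erythroid cells.

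**Figure D4:**
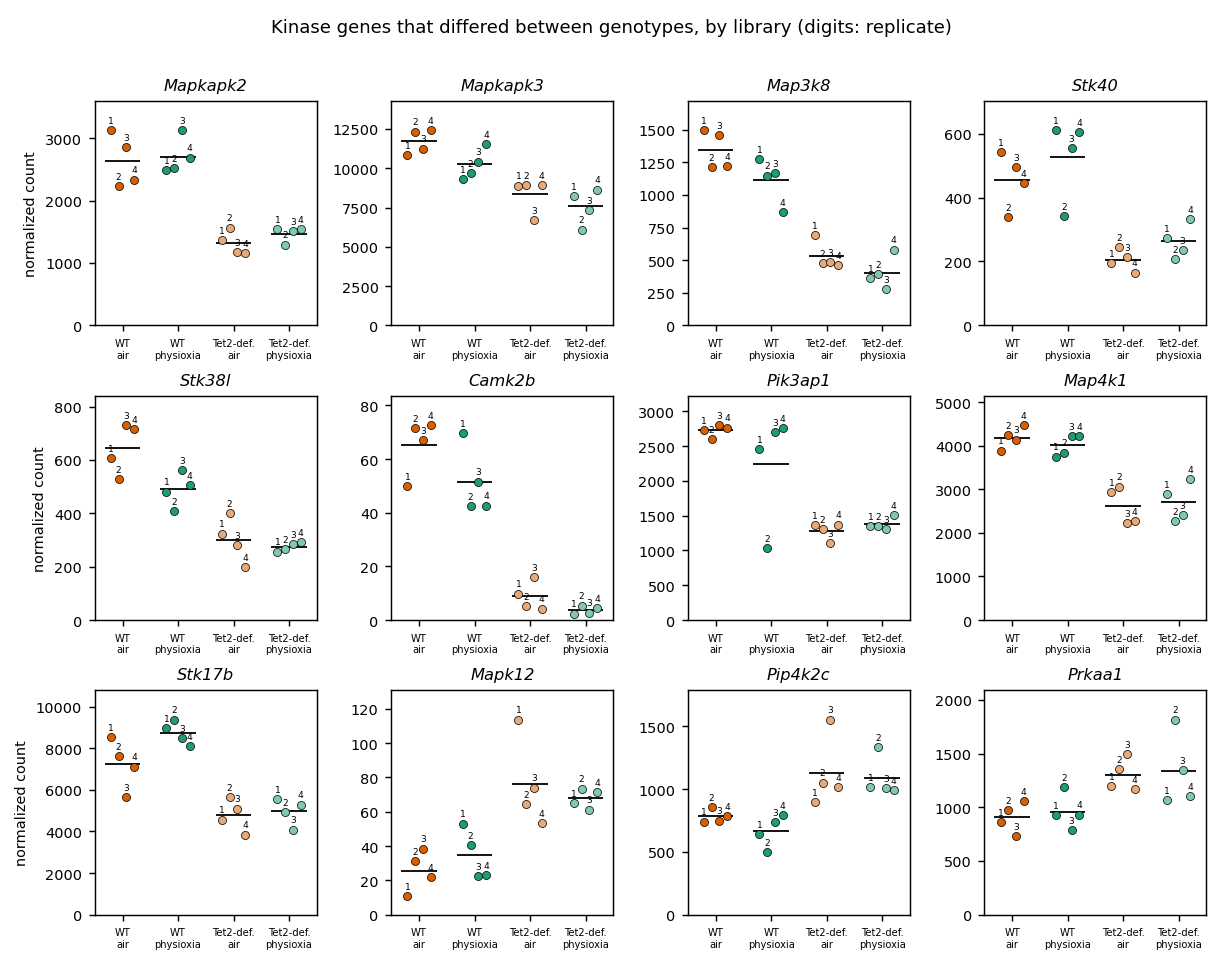
Normalized counts (linear axis from 0) of 12 members called between genotypes, in all 16 libraries; points are libraries with their replicate number and bars are group means. Mapkapk2, Mapkapk3, Map3k8, Stk40, Stk38l, Camk2b, Map4k1 and Stk17b have lower means in both Tet2-deficient groups, Pik3ap1 likewise despite WT physioxia library 2 at 1038, and Mapk12, Pip4k2c and Prkaa1 have higher means.

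At the top of the MAP kinase cascade, Map4k1 was lower in Tet2-deficient cells under both conditions. This kinase, also called HPK1, restrains antigen receptor signalling in lymphocytes. Map4k1 read 3887, 4242, 4143 and 4479 in WT air and 2945, 3065, 2221 and 2268 in Tet2-deficient air, with no overlap, a log2 difference of -0.69 (SE 0.13, adjusted p = 0.000429). In physioxia it read 3751, 3841, 4231 and 4214 in WT and 2898, 2276, 2409.5 and 3240.0 in Tet2-deficient cells, a difference of -0.58 (SE 0.13, adjusted p = 0.00153). Map4k4 was lower in air by -0.85 (adjusted p = 0.00581) on the log2 scale and not called in physioxia at -0.38 (adjusted p = 0.163). Map4k5 went up in air, with means of 139 ± 29.8 and 485 ± 281 (SD, n = 4) and a log2 difference of 1.60 (SE 0.36, adjusted p = 0.00176), and in physioxia its difference was 0.26 (adjusted p = 0.536).

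Among the 8 MAP3K genes 3 were higher and 3 lower in air, and 3 higher and 2 lower in physioxia. Over all genes tested, 42.1% were higher and 37.4% lower in air, and 35.9% and 33.6% in physioxia. These shares also stand beside the counts of the other families below, and no family was tested against them. Map3k8 encodes TPL2, which activates MEK downstream of Toll-like and TNF receptors. It read 1495, 1215, 1456 and 1223 in WT air and 692, 478, 484 and 459.6 in Tet2-deficient air, a log2 difference of -1.36 (SE 0.20, adjusted p = 4.93e-05). Its physioxia libraries read 1273, 1148, 1169 and 871 in WT and 363, 394, 279 and 581 in Tet2-deficient cells, a difference of -1.499 (SE 0.20, adjusted p = 2.10e-05). No Tet2-deficient library reached the lowest WT library under either condition. Map3k1 was lower in air, with 158, 183, 126 and 160.0 in Tet2-deficient air against a lowest WT air value of 334, a log2 difference of -1.36 (SE 0.30, adjusted p = 0.0016), and was not called in physioxia (-0.57, adjusted p = 0.103). Map3k7 encodes TAK1, which links cytokine receptors to JNK, p38 and NF-kB. Its difference was 0.38 (adjusted p = 0.0328) in air, a call lost in 9 of the 28 alternative settings, and 0.55 (adjusted p = 0.00556) in physioxia, a call lost in 1. Quantile normalization ended both.

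The remaining MAP3K genes were lower in level or less stable. Map3k12, a kinase upstream of JNK known from neurons, read 55.5, 26.7, 39.9 and 47.8 in WT physioxia and 94.5, 123, 78.8 and 108 in Tet2-deficient physioxia, a log2 difference of 1.26 (SE 0.27, adjusted p = 0.0013), while in air its difference was 0.32 (adjusted p = 0.272). Map3k13 was called as higher under both conditions at a very low level, 0 to 9.06 normalized counts in WT air and 9.01 to 17.2 in Tet2-deficient air. Map3k3 was lower in air (-0.54, adjusted p = 0.00981) and Map3k2 lower in physioxia (-0.57, adjusted p = 0.0428). Map3k6 was higher in air with overlapping groups, 43.3, 29.2, 112 and 36.4 against 67.9, 55.6, 260.2 and 307, and this call was lost in 7 of the 28 alternative settings, among them the loss of WT air library 2 or of Tet2-deficient air library 3 or 4.

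At the MAP2K tier Map2k4 was higher in Tet2-deficient cells. It read 902, 735, 1799 and 1713 in Tet2-deficient air, all above the highest WT air library at 608, a log2 difference of 1.25 (SE 0.25, adjusted p = 0.000768). In physioxia it read 1465, 1930.4, 1905 and 1304, a difference of 0.58 (SE 0.25, adjusted p = 0.0488), which lost its call in 12 of the 28 alternative settings, among them the loss of any of the 4 WT physioxia libraries. Map2k3, an activator of p38, was lower, with a log2 difference of -0.40 (adjusted p = 0.0222) in air and -0.35 (adjusted p = 0.0387) in physioxia, calls lost in 4 and 10 of the 28 alternative settings. Map2k2 was higher in air with overlapping groups, 2889.6, 1686, 1911 and 908 against 1986, 3387, 4076 and 3903, a log2 difference of 0.92 (SE 0.27, adjusted p = 0.00822), a call lost without Tet2-deficient air libraries 3 and 4. Map2k1 was not called in air and was lower in physioxia by -0.32 (adjusted p = 0.0139).

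The MAP kinases themselves split by gene. Mapk9 (JNK2) was higher in Tet2-deficient cells, with 1440.4, 1446, 2237 and 2126 in air and 1939.7, 2298, 2251 and 2035 in physioxia, both groups above every WT library of the same condition. The log2 difference was 1.18 (SE 0.16, adjusted p = 3.22e-05) in air and 0.72 (SE 0.16, adjusted p = 0.00168) in physioxia, and it was called in all 28 alternative settings for both. Mapk8 (JNK1) was lower, with means of 1841 ± 198 and 1472 ± 117 in air (SD, n = 4), a log2 difference of -0.32 (SE 0.11, adjusted p = 0.0172), and of -0.29 (adjusted p = 0.0295) in physioxia. Mapk6, which encodes the atypical kinase ERK3, read 9142, 9323, 10178 and 10944 in WT air and 5465, 5702, 4395 and 4569 in Tet2-deficient air. Its log2 difference was -0.98 (SE 0.19, adjusted p = 0.000522) in air and -0.69 (SE 0.19, adjusted p = 0.00546) in physioxia, where WT library 2 lay within the Tet2-deficient range.

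The minor p38 genes moved in opposite directions at low levels. Mapk12 (p38 gamma) read 10.6, 31.2, 38.5 and 22 in WT air and 114, 64.3, 74.1 and 53.3 in Tet2-deficient air, a log2 difference of 1.62 (SE 0.37, adjusted p = 0.00185). Its physioxia libraries read 53.1, 40.6, 22.4 and 23 in WT and 65, 73.5, 61.2 and 71.4 in Tet2-deficient cells, a difference of 1.03 (SE 0.37, adjusted p = 0.0222). Mapk13 (p38 delta) read 39.4, 44.3, 61.7 and 56.4 in WT air and 23.7, 18.2, 15 and 21.2 in Tet2-deficient air, a difference of -1.32 (SE 0.33, adjusted p = 0.003), and -1.18 (adjusted p = 0.00564) in physioxia. The Mapk13 groups did not overlap under either condition, and neither did those of Mapk12. Mapk7 (ERK5) was called in no comparison and in air read 856 ± 138 (SD, n = 4) in WT and 649 ± 88.4 in Tet2-deficient cells.

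Downstream of p38, both MAPKAPK genes were lower. Mapkapk2 encodes MK2, which stabilises cytokine mRNAs. It read 3123, 2228, 2859 and 2335 in WT air and 1371, 1566, 1173 and 1157 in Tet2-deficient air, a log2 difference of -0.998 (SE 0.13, adjusted p = 2.11e-05). In physioxia it read 2481, 2519, 3124 and 2686 in WT and 1537, 1294, 1511 and 1540.0 in Tet2-deficient cells, a difference of -0.88 (SE 0.13, adjusted p = 7.28e-05). Its WT and Tet2-deficient libraries did not overlap, and the call held in all 28 alternative settings under both conditions. Mapkapk3, the more abundant relative, read 10826, 12332, 11245 and 12408 in WT air and 8889.6, 8948, 6680.1 and 8919 in Tet2-deficient air, a log2 difference of -0.49 (SE 0.13, adjusted p = 0.00343). In physioxia the difference was -0.45 (SE 0.13, adjusted p = 0.00614), a call that quantile normalization ended at -0.22. Mapk1ip1l was lower in air by -0.35 (adjusted p = 0.0227) and was not called in physioxia (-0.21, adjusted p = 0.163).

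Of the 8 genes in the PI3K and lipid kinase group, 1 was higher and 4 lower in air, and 3 higher and 4 lower in physioxia. The 4 lower in air were Pik3ap1, Pik3ip1, Pik3r6 and Pik3c2a, of which Pik3ap1, Pik3ip1 and Pik3r6 encode no lipid kinase. Pik3ap1 encodes BCAP, an adaptor that brings PI3K to B cell and Toll-like receptors. It read 2734, 2605, 2806 and 2769 in WT air and 1360.2, 1305, 1111 and 1371 in Tet2-deficient air, a log2 difference of -1.09 (SE 0.22, adjusted p = 0.0009). In physioxia it read 2459.9, 1038, 2698 and 2766 in WT and 1345, 1352, 1311 and 1512 in Tet2-deficient cells, a difference of -0.60 (SE 0.22, adjusted p = 0.0264), with WT library 2 below every Tet2-deficient library. Pik3ip1, a membrane protein that inhibits PI3K, was lower under both conditions, with means of 5447 ± 486 and 3698 ± 299.9 in air (SD, n = 4) and a difference of -0.56 (SE 0.10, adjusted p = 0.000265). In physioxia its difference was -0.46 (adjusted p = 0.0011), and quantile normalization ended the call.

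The catalytic and regulatory PI3K genes differed from each other. Pik3cg, the catalytic subunit coupled to G protein receptors in leukocytes, was higher in physioxia, 3219, 2049, 3313 and 4091 in WT and 4836, 4049, 4841 and 4532 in Tet2-deficient cells, a log2 difference of 0.57 (SE 0.16, adjusted p = 0.00577). Its partner subunit Pik3r6 was lower, with a log2 difference of -0.82 (adjusted p = 0.00606) in air and -0.59 (adjusted p = 0.0318) in physioxia. Pik3cb was lower in physioxia, where WT read 268, 239, 269 and 255 and Tet2-deficient 132, 150.2, 149 and 158, a log2 difference of -0.80 (SE 0.29, adjusted p = 0.023). In air the Pik3cb groups overlapped (-0.21, adjusted p = 0.486). Pik3r4, the VPS15 subunit of the autophagy-linked PI3K, was higher in physioxia by 0.59 (adjusted p = 0.00355) and not called in air, although its groups there did not overlap (0.30, adjusted p = 0.0735). Pip4k2c, a phosphatidylinositol phosphate kinase, read 641, 495, 737 and 792 in WT physioxia and 1015, 1333, 1006 and 995 in Tet2-deficient physioxia, a log2 difference of 0.72 (SE 0.17, adjusted p = 0.00258), and 0.50 (adjusted p = 0.0181) in air. Pik3c2a, a class II PI3K, was lower in air (-0.75, adjusted p = 0.035) and was not called in physioxia (-0.49, adjusted p = 0.159).

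PKA genes moved by subunit. Prkar1a was lower in Tet2-deficient cells, 21875, 23501, 26903 and 25035 in WT air and 19474, 20745, 17848 and 16412 in Tet2-deficient air, a log2 difference of -0.39 (SE 0.10, adjusted p = 0.00343), and -0.45 (adjusted p = 0.00127) in physioxia. Quantile normalization ended both calls, and leaving out Tet2-deficient air libraries 3 and 4 the one in air, with quantile-normalized differences of -0.23 in air and -0.14 in physioxia. Prkacb, a catalytic subunit, was higher by 0.33 (adjusted p = 0.00921) in air and 0.28 (adjusted p = 0.0213) in physioxia. Prkar2a was called as higher in physioxia only (0.57, adjusted p = 0.0115) and Prkar2b in air only, with a difference of 1.21 (SE 0.37, adjusted p = 0.00952), the latter lost without Tet2-deficient air libraries 3 and 4 or WT air libraries 1 and 2. Prkaa1, the AMPK catalytic subunit, read 860.3, 975.0, 733 and 1057 in WT air and 1197, 1355, 1496 and 1167 in Tet2-deficient air, a log2 difference of 0.53 (SE 0.17, adjusted p = 0.0137), and 0.46 (adjusted p = 0.0276) in physioxia with overlapping groups. Prkx was lower in air (-0.57, adjusted p = 0.0255).

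Of the 4 protein kinase C and D genes, Prkcb, Prkcd and Prkd2 were lower in air and Prkci higher, and none was called in physioxia. Their log2 differences in air were -0.71 (adjusted p = 0.0133) for Prkcb, -0.45 (adjusted p = 0.0383) for Prkcd, -0.68 (adjusted p = 0.0383) for Prkd2 and 1.23 (adjusted p = 0.0124) for Prkci. The Prkcd call was lost in 10 and the Prkd2 call in 11 of the 28 alternative settings, and the Prkci call without Tet2-deficient air libraries 3 and 4 or WT air libraries 1 and 2. Prkd2 in WT physioxia read 1409.9, 518, 1306 and 1819, with library 2 far below the rest.

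Calcium-regulated members were led by Camk2b, a subunit of CaM kinase II best known from neurons, which had the largest difference of all 66 members in both conditions at a low level. It read 49.99, 71.4, 67.2 and 72.7 in WT air and 9.82, 5.21, 16 and 4.23 in Tet2-deficient air, a log2 difference of -2.90 (SE 0.37, adjusted p = 1.49e-05). Its physioxia libraries read 69.6, 42.4, 51.6 and 42.7 in WT and 2.36, 5.4, 2.72 and 4.3 in Tet2-deficient cells, a difference of -3.50 (SE 0.37, adjusted p = 2.26e-06). Camk2a, the other subunit measured, was lower, with a log2 difference of -0.55 (adjusted p = 0.00741) in air and -0.48 (adjusted p = 0.0146) in physioxia. Camk1 was lower in physioxia, with means of 2843 ± 610.2 and 1861 ± 292 (SD, n = 4) and a difference of -0.60 (SE 0.17, adjusted p = 0.00598). Camkk2, which activates CaM kinases and AMPK, was higher in air by 0.64 (adjusted p = 0.00434), a call lost without Tet2-deficient air libraries 3 and 4.

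The 9 genes in the CDK group include Cdk2ap2 and Cdk5rap1, which encode no kinase. Of the 9, 4 were higher and 2 lower in air, and 1 higher and 3 lower in physioxia. Cdk16 read 187, 235, 309 and 245 in WT air and 310.2, 568, 691 and 1757 in Tet2-deficient air with groups that came close without overlapping, a log2 difference of 1.496 (SE 0.36, adjusted p = 0.00257), and 0.43 (adjusted p = 0.295) in physioxia. Cdk7, the kinase of TFIIH that also activates other CDKs, was higher in both, with 738, 712, 833 and 799 in WT air and 1077, 1202, 1282 and 1298 in Tet2-deficient air and a difference of 0.66 (SE 0.18, adjusted p = 0.00573). In physioxia its difference was 0.51 (adjusted p = 0.0206), a call lost in 7 of the 28 alternative settings. The groups overlapped there, with WT library 2 at 1291 above the Tet2-deficient mean of 1243. Cdk1, the mitotic kinase, was higher in air by 0.43 (adjusted p = 0.0435), a call lost in 11 of the 28 alternative settings. Cdk5 was lower, with a log2 difference of -0.34 (adjusted p = 0.0299) in air and -0.60 (adjusted p = 0.00144) in physioxia. Cdk2ap2, which encodes a CDK2-associated protein, was lower, with a log2 difference of -0.47 (adjusted p = 0.00575) and -0.67 (adjusted p = 0.000612). Cdk9, the kinase that releases paused RNA polymerase II, was lower in physioxia (-0.38, adjusted p = 0.0192), and Cdk20 was higher in air (0.53, adjusted p = 0.0165).

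Among the 8 STK genes 2 were higher and 4 lower in air, and 5 were lower in physioxia. Stk40 read 541, 338, 494 and 446 in WT air and 194, 246, 214 and 165 in Tet2-deficient air, a log2 difference of -1.14 (SE 0.21, adjusted p = 0.000408). In physioxia it read 610.0, 342, 556 and 604 in WT and 273, 207, 236 and 334 in Tet2-deficient cells, a difference of -0.99 (SE 0.21, adjusted p = 0.0012). Stk38l encodes NDR2, a kinase of the Hippo family of pathways. It read 607, 527, 731 and 715 in WT air and 324, 400.3, 281 and 197 in Tet2-deficient air, a difference of -1.13 (SE 0.18, adjusted p = 0.000142), and -0.82 (adjusted p = 0.0016) in physioxia. The groups of both genes were apart under both conditions. Stk17b, which encodes the death-associated kinase relative DRAK2, read 8950.2, 9380.5, 8473 and 8087 in WT physioxia and 5552, 4929, 4081 and 5286 in Tet2-deficient physioxia, a difference of -0.82 (SE 0.14, adjusted p = 0.00022). In air its difference was -0.59 (SE 0.14, adjusted p = 0.00238), with WT library 3 below the highest Tet2-deficient library. Stk16 was lower, with a log2 difference of -0.56 (adjusted p = 0.00153) in air and -0.75 (adjusted p = 0.000163) in physioxia, and Stk19 in physioxia, at -0.54 (adjusted p = 0.000712). Stk35 and Stk11 were higher in air by 1.49 (adjusted p = 0.00286) and 1.18 (adjusted p = 0.0172), both with overlapping groups, and both calls were lost without Tet2-deficient air libraries 3 and 4. Stk10, a kinase of lymphocytes, was called in neither condition, with -0.38 (adjusted p = 0.07) in air and 0.10 (adjusted p = 0.632) in physioxia, and read 1167 ± 73.5 (SD, n = 4) in WT air. Prkrip1, which encodes no kinase, was lower in both conditions, at -0.38 (adjusted p = 0.0158) in air and -0.55 (adjusted p = 0.00189) in physioxia.

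Related genes can also be read as shares within a pair or trio, per kilobase of exon, which is a description chosen after the values were seen and was not tested. Mapk9 made up 32.4% to 49.5% of Mapk8 plus Mapk9 in WT air, 55.4% to 62.4% in WT physioxia, 59.7% to 72.9% in Tet2-deficient air and 69.8% to 76.6% in Tet2-deficient physioxia. Per kilobase the JNK pair thus read mostly as Mapk8 in WT air and mostly as Mapk9 in the other 3 groups. This rests on the exon lengths used, 11444 bases for Mapk8 and 6784 for Mapk9, merged over all annotated transcripts and not those expressed. In normalized counts WT physioxia still had more Mapk8 (mean 1592) than Mapk9 (1289), so no switch of the main JNK transcript with oxygen in WT is shown. Prkar2b made up 2.59% to 3.41% of the 3 PKA regulatory genes in WT air, 6.02% to 12.4% in WT physioxia, 4.54% to 20.8% in Tet2-deficient air and 9.31% to 13.2% in Tet2-deficient physioxia. Map2k2 made up 22% to 43.3% of the MEK pair in WT air, 38.9% to 47.4% in WT physioxia, 38.1% to 59.6% in Tet2-deficient air and 50.01% to 54.7% in Tet2-deficient physioxia. Mapkapk2 made up 24.8% to 34.5% of the MAPKAPK pair in WT air and 19.1% to 24.2% in Tet2-deficient air.

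**Figure D5:**
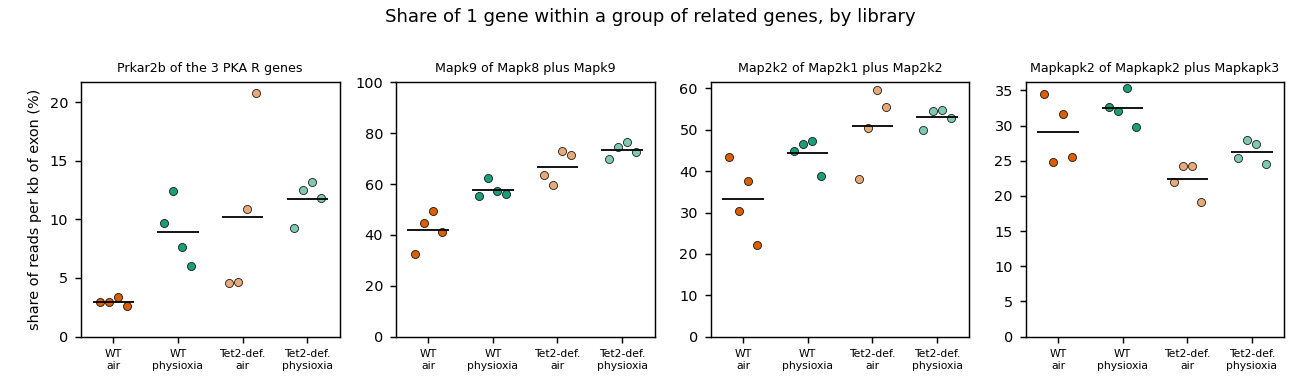
Share (percent of reads per kilobase of exon) of Prkar2b within the 3 PKA regulatory (R) genes, of Mapk9 within Mapk8 plus Mapk9, of Map2k2 within Map2k1 plus Map2k2 and of Mapkapk2 within Mapkapk2 plus Mapkapk3; points are libraries and bars group means, with axes starting at 0 and differing in range. The Mapk9 share is lowest in WT air, at 32.4% to 49.5%, and highest in Tet2-deficient physioxia, at 69.8% to 76.6%.

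Partners of these kinases outside the families were read from 10 pathway lists, which cover only the members present in the table. In air, MAP kinase phosphatases, which switch MAP kinases off, were higher for 6 and lower for 3 of 13 tested, with a median log2 difference of 0.45 beside 0.24 over all genes. Dusp1 was higher by 2.11 (adjusted p = 4.91e-05) and Dusp2 by 1.09 (adjusted p = 0.000111), and Dusp16, which acts on JNK, was lower, with a log2 difference of -2.03 (adjusted p = 1.09e-05). Nuclear and cytosolic targets of MAP kinases were higher for 11 and lower for 6 of 21, with a median of 0.59, among them the immediate early genes Egr1 by 2.51 (adjusted p = 3.48e-05) and Fos by 2.28 (adjusted p = 1.55e-05). In physioxia the phosphatases were higher for 5 and lower for 3 of 13, with a median of 0.11 beside 0.06 over all genes. The targets there were higher for 11 and lower for 4 of 21, with a median of 0.60. RAS and RAF regulators upstream of ERK were higher for 3 and lower for 9 of 16 in air, with a median of -0.48, among them Spred1, an inhibitor of RAS signalling, at -1.03 (adjusted p = 0.000156). In physioxia 4 of these 16 were higher and 7 lower, with a median of -0.27.

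In the lists around PI3K, 4 of 14 genes from PI3K to AKT and mTOR were higher and 6 lower in air (median -0.17). Akt1 was lower, with a log2 difference of -0.48 (adjusted p = 0.00177), and so was the mTOR complex subunit Rictor, at -0.88 (adjusted p = 7.87e-05), while Inpp4b, an inositol lipid phosphatase, was higher by 1.22 (adjusted p = 1.70e-05). Other phosphoinositide kinases and phosphatases were higher for 5 and lower for 7 of 16 (median -0.44). Diacylglycerol and protein kinase C partners were higher for 1 and lower for 6 of 8 (median -0.67), led by the adaptors Bcl10 with -0.88 (adjusted p = 2.94e-06) and Card9 with -0.85 (adjusted p = 0.000265). Cyclic AMP and PKA partners were higher for 7 and lower for 7 of 18, calcium and calmodulin genes for 5 and 3 of 15, Hippo and LKB1 partners for 5 and 7 of 13, and cyclins and CDK inhibitors for 8 and 6 of 21, where Ccne1, cyclin E1, was higher by 3.32 (adjusted p = 9.88e-05). In physioxia, genes from PI3K to AKT and mTOR were higher for 5 and lower for 4 of 14, and Hippo and LKB1 partners for 5 and 3 of 13. The medians of both lists were negative under both conditions, so no reversal is shown. They were -0.17 in air and -0.07 in physioxia for PI3K to AKT and mTOR, and -0.48 and -0.26 for Hippo and LKB1 partners. Other phosphoinositide genes were higher for 3 and lower for 4 of 16 in physioxia (median -0.11). Diacylglycerol and protein kinase C partners were higher for 0 and lower for 4 of 8 there (median -0.35). Cyclic AMP and PKA partners were higher for 7 and lower for 6 of 18, calcium and calmodulin genes for 5 and 3 of 15, and cyclins and CDK inhibitors for 8 and 6 of 21. These counts stand beside the 42.1% higher and 37.4% lower of all genes tested in air, and the 35.9% and 33.6% in physioxia.

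Between physioxia and air in WT, the genes of these lists called stand beside 4.91% higher and 0.851% lower of all genes tested. Cyclins and CDK inhibitors had 3 higher of 21 (14.3%), which were Cdkn1c by 2.79 (adjusted p = 0.0169), Ccng2 by 1.71 (adjusted p = 0.01) and Cdkn2c by 1.64 (adjusted p = 0.0372). Of the 15 calcium genes 2 (13.3%) were called: Orai1, a store-operated calcium channel, was higher by 1.47 (adjusted p = 0.00964) and Rcan1, an inhibitor of calcineurin, by 1.82 (adjusted p = 0.0133). Of the MAP kinase targets 2 of 21 were higher, Mef2a by 0.88 (adjusted p = 0.00955) and Rps6ka5 by 0.995 (adjusted p = 0.0112), and of the RAS and RAF regulators 1 of 16 was higher. Sgk1 fell by 0.77 on the log2 scale (adjusted p = 0.0302) and Akap10 by 0.74 on the log2 scale (adjusted p = 0.0191), while no MAP kinase phosphatase of 13, no diacylglycerol or protein kinase C partner of 8 and no Hippo or LKB1 partner of 13 was called. Other phosphoinositide genes had 2 higher and 1 lower of 16, with Vac14 higher by 0.60 (adjusted p = 0.0161), Mtmr1 by 1.33 (adjusted p = 0.0456) and Inpp5f lower, with a log2 difference of -0.63 (adjusted p = 0.0149).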

How the data were processed

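RNA was sequenced from 16 libraries in 4 groups of 4, as paired-end reads from a low-input kit, per the labels' protocols. The submitters' processing notes name FastQC, cutadapt, STAR, HTSeq, DESeq2 and GRCm38, with no versions. The authors deposited normalized counts, a signal per gene equal to reads divided by a size factor per library. Within a tolerance of 0.01 reads, 100% of values came out as whole reads, so count tests were run as alternatives. Gene IDs were matched to GENCODE release 21 symbols for 6278 of 6288 genes.

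Members and lists were chosen with earlier results of these data known. Genes with at least 10 normalized counts in at least 4 libraries were tested on log2(value + 1) with limma 3.58.1 (R 4.3.3) with a mean-variance trend, in 1 fit over all 16 libraries, with Benjamini-Hochberg adjustment over 6110 genes and a threshold of 0.05. Values per library are given for up to 8 members in each direction per comparison with the largest called difference, no overlap of groups and a mean of 50 or more, for a list of well-known members, and for some others (such as Camk2b, Mapk12 and Mapk13) chosen after their values were seen. Genes of the pathway lists are among the 4 with the smallest p. The code was tested on simulated data. Alternatives used other pseudocounts and filters, quantile normalization, edgeR 4.0.16, DESeq2 1.42.0, only the groups compared, a replicate block, an adjustment over 22719 genes and fewer libraries. Intervals are 95% limits from the fit. A few genes that enter the counts are not reported here by name.

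The labels call the replicates matched, and the deposited column names reuse the same replicate tags under both oxygen conditions within a genotype. They do not say that a replicate number marks the same mice or day, so the block was kept as an alternative. If the numbers mark pairs, the main oxygen tests ignored that pairing. Deviations of same-numbered WT air and physioxia libraries correlated at 0.33, 0.18, 0.16 and 0.33, each the highest for its air library. These correlations are weak, so the numbers may pair the WT libraries but this is not settled. Those of Tet2-deficient libraries correlated at 0.32, -0.27, 0.04 and -0.01, and numbers did not pair libraries across genotypes. Separate cultures or animals per replicate are not described beyond the labels' wording, so p-values measure the spread between these samples, which may be technical in part.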

Additional observations from a re-analysis of the deposited data

Results flagged for a closer look

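Of 256 groups of 4 libraries (64 members in 4 groups), 17 (6.64%) had a highest or lowest library whose gap to the nearest other exceeded Dixon's 95% limit for its share of the group's range, where chance gives about 1 in 20. WT physioxia library 2 held 6 of them: it was lowest for Mapk7 (355 normalized counts, the others 671 to 675), Prkcd (1381), Map3k2 (433) and Prkx (284), and highest for Cdk7 (1291) and Stk16 (9928). The same library had the highest marker sums of its group for monocytes and macrophages (35800.1), erythroid progenitors (83784), basophils, mast cells and eosinophils (684408) and T and NK cells (45912, the others 27943 to 33481), and the lowest for stem and multipotent progenitors (6760.3, the others 9367 to 10631), and their part in these values was not tested. In the means of this group, Nkg7 made up most of the T and NK cell sum and Prg2 most of the basophil, mast cell and eosinophil sum.

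In Tet2-deficient physioxia, Mapkapk2 was low in library 2 (1294) and Prkar2b in library 1 (1641), while Pip4k2c was high in library 2 (1333) and Camk2a in library 3 (321). In Tet2-deficient air, Map3k8 was high in library 1 (692), Mapk8 in library 2 (1645) and Prkcb in library 4 (166), and Mapkapk3 was low in library 3 (6680.1). In WT air, Camk1 was low in library 1 (1796) and Map3k6 high in library 3 (112), and in WT physioxia Map3k13 was listed at 0 in library 1.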

How the results depend on the processing

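No called member changed direction in any of the 28 alternative settings, and 21 of the 52 genotype calls in air and 19 of the 41 in physioxia held in all of them, against 0 of the 7 oxygen calls in WT and 0 of the 4 averaged over genotypes. With p-values adjusted over 22719 genes, 0 members were called for oxygen in WT and on average, 34 for genotype in air and 25 in physioxia, since every gene outside the table was taken as unchanged. Of all genes tested, 1.57%, 1.57%, 55.0% and 54.5% were called there. Without Tet2-deficient air libraries 3 and 4 the counts were 3 for oxygen in Tet2-deficient cells, 12 on average and 27 for genotype in air. The shares of all genes tested were 2.49%, 7.22% and 45.2%. Without WT air libraries 1 and 2 they were 0 members for oxygen in WT, 0 on average and 31 for genotype in air (0%, 0.147% and 54.4% of all genes tested). DESeq2 called 7 on average (5.47% of all genes tested). Apart from the smaller number of samples or wider adjustment, the cause was not tested.

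Leaving out each library in turn gave 0 to 10 members for oxygen in WT, 1 to 7 on average, 43 to 57 for genotype in air and 32 to 45 in physioxia, and 0 for oxygen in Tet2-deficient cells and the interaction. Of all genes tested, 2.09% to 9.07%, 2.27% to 5.88%, 66.3% to 86.3% and 62.9% to 70.5% were called in the first 4 of these. With the replicate block, which pairs libraries by number, 8 members were called for oxygen in WT, 5 on average, 52 for genotype in air, 41 in physioxia, and 0 for oxygen in Tet2-deficient cells and for the interaction. The shares of all genes tested were then 7.56%, 4.44%, 78.9%, 68.8%, 0% and 0%. Low members such as Map3k13 and Camk2b rest on few of the 7770456 to 15683867 reads per library in the table.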
